A study of Mus musculus with 32 samples.

Results

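The genes of the mouse major histocompatibility complex (MHC, called H2 in the mouse) and the genes that regulate and supply them were followed in kidney RNA after cisplatin. Members were protein-coding genes with a symbol starting with H2-, and B2m, Cd74, Ciita, Nlrc5, Tap1, Tap2, Tapbp, Psmb8 and Psmb9, with a mean raw count of at least 10 over the libraries. Of 54532 gene rows, 43 bore these symbols and 27 passed the count minimum. They comprised 8 class II genes (H2-Aa, H2-Ab1, H2-Eb1, H2-DMa, H2-DMb1, H2-DMb2, H2-Ob and Cd74), the 2 class Ia heavy chains H2-K1 and H2-D1, 9 class Ib heavy chains (H2-Q2, H2-Q4, H2-Q6, H2-Q7, H2-Q10, H2-T22, H2-T23, H2-T24 and H2-M3), the 2 regulators Ciita and Nlrc5, and 6 genes of peptide supply and class I assembly (B2m, Tap1, Tap2, Tapbp, Psmb8 and Psmb9). Just inside the minimum were H2-Ob with a mean count of 22.8 and H2-DMb2 with 24.5, and just outside it were H2-Oa with 9.19 and H2-Ke6 with 6.25.

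Kidneys came from wild-type mice of the inbred strain C57Bl/6 aged 6 to 8 weeks, with 4 mice (biological replicates per the study) in each of 8 groups, which were males and females before cisplatin (Day 0) and 2, 3 and 5 days after it. Cisplatin, a platinum chemotherapeutic that injures the kidney tubule, was given to the later groups as a single intraperitoneal injection of 20 mg/kg, and the Day 0 groups were healthy mice per the study. The labels list no treatment for Day 0 males but list cisplatin for Day 0 females. Each day was compared with Day 0 of the same sex, and males with females on each day, to follow the course of the injury and to see whether the sexes differed.

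Class II molecules are made mainly by dendritic cells, macrophages and B cells, which load them with peptides of engulfed proteins for CD4 T cells. Class Ia molecules are carried by nearly all nucleated cells and show peptides of the cell's own proteins to CD8 T cells. In the kidney a network of resident dendritic cells and macrophages lies between the tubules, and tubule cells can also take up class II expression under interferon gamma. Ciita drives class II genes and Nlrc5 class I genes, and neither binds DNA itself: each is recruited to factors bound at the X and Y boxes upstream of the start site.

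The upstream sequences of 5 class II genes and B2m are shown as examples of stretches that hold the Y box, with or without the X box core. RefSeq windows (assembly GRCm38.p6) ran from 250 bases before to 50 bases after the start site. They were searched on both strands for 21 of the 27 members. Cd74 was left out of this search, so the counts of members below do not cover it. No windows of H2-Ab1, H2-T24, Ciita, Nlrc5 and Tap2 were searched either. The Y box, GATTGG, was in windows of 16 members and in 16.1% of all 32851 windows. The 21 members had 23 windows, so a count of members and a share of windows have different bases. Both windows of H2-DMa ended, at chr17:34122881 and chr17:34125567, before the start of the counted gene at chr17:34135182. The Y box counted for H2-DMa was in the second. The X box core was in those of H2-Eb1 and H2-DMb1 and in 0.968% of all windows. The core of the interferon-stimulated response element was in those of B2m, H2-T22 and H2-T23 and in 3.44% of all windows. Each stretch is 66 bases long, 5′ to 3′ on the gene's strand, with Y box and X box core letters in capitals.
H2-Eb1 (chr17:34305757-34305822, + strand): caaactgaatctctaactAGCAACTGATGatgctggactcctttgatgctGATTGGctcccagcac
H2-DMb1 (chr17:34153079-34153144, + strand): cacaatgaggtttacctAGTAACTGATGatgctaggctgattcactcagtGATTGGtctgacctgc
H2-DMb2 (chr17:34145108-34145173, + strand): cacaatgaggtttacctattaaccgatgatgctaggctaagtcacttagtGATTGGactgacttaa
H2-Ob (chr17:34238797-34238862, + strand): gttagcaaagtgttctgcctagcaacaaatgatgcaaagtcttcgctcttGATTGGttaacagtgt
H2-Aa (chr17:34287857-34287922, - strand): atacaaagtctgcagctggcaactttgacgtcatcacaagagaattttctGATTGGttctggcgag
B2m (chr2:122147583-122147648, + strand): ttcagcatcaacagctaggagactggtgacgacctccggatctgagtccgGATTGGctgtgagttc
In these 6 stretches the Y box began between 49 and 91 bases before the start site. A match of letters is a description and not a test of binding.

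Total raw counts per library lay between about 16502100 and 35961300. Levels are CPM, counts scaled to a common library total with TMM factors over the 32 libraries, and mouse values are listed in the order of mouse 1 to mouse 4. Kidney tubule and glomerulus markers summed to 2551 CPM or more in every library. Several libraries stood apart. Transcripts of the mitochondrial genome took 42.5% to 79.8% of the counts in Day 5 males and 31.6% and 77.9% in Day 5 female mice 1 and 2, against 4.49% to 23.97% in all libraries of Days 0, 2 and 3. Male Day 5 mouse 1 held 4153 counts on Xist beside 387 on Y-linked genes, male Day 5 mice 2 to 4 and male Day 0 mice 1 and 4 held 50 to 260 on Xist against 0 to 7 in the other males, and Day 0 female libraries held 5 to 221 counts on Y-linked genes, against their labels. Female Day 0 mouse 2 carried hepatocyte transcripts (Alb at 6973 CPM), as did, at lower levels, female Day 3 mouse 2 (Alb at 265 CPM) and female Day 0 mouse 3 (Alb at 149 CPM and Apoa2 at 78.3 CPM). In mouse 3 of the Day 0 females, H2-T24 and H2-Ob had 0 counts and 6 of 9 B cell markers were at 0, as were 5 of 9 in male Day 0 mouse 3. Adrenal markers summed to 14.5 to 1052 CPM in Day 3 females, 245 to 717 CPM in Day 5 females and 20.8 to 113 CPM in Day 5 males, and to 322 CPM in male Day 2 mouse 2, against 0.730 to 56.2 CPM in Day 0 males and 2.98 to 133 CPM in Day 0 females. Their part in the results was not tested.

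Most class II genes fell by Day 3 in both sexes. Of the class Ia heavy chains, H2-K1 passed in males at -0.54 on the log2 scale, beside -0.45 for H2-D1, and in females neither passed, at -0.47 and -0.02. Summed over the 8 class II genes, the level in males was 573 ± 146 CPM (SD, n = 4) at Day 0, 337 ± 139 at Day 2, 174 ± 25.7 at Day 3 and 377 ± 263 at Day 5. In females the sum was 625 ± 219 CPM at Day 0, 208 ± 88.0 at Day 2, 140 ± 72.7 at Day 3 and 212 ± 84.0 at Day 5. The 2 class Ia genes summed to 633 ± 75.6 CPM in males at Day 0 and 450 ± 54.3 at Day 3, and to 645 ± 210 and 545 ± 78.0 in females. In whole kidney RNA, fewer cells of a type and less RNA per cell cannot be told apart.

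**Figure D1:**
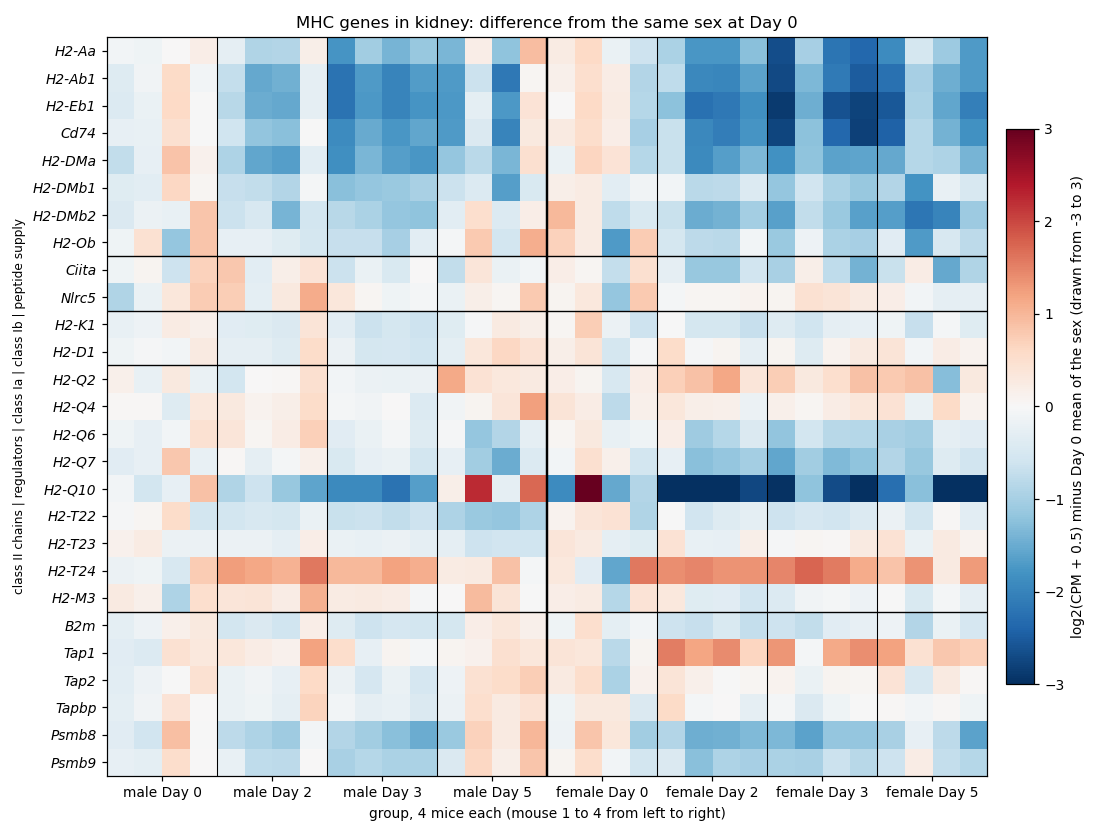
Color map of 27 genes (rows, by class) in 32 mice (columns, 4 per group): log2(CPM + 0.5) minus the Day 0 mean of the same sex, drawn from -3 to 3. Cd74, H2-Eb1, H2-Ab1, H2-Aa, H2-DMa and H2-DMb1 are blue in the 8 Day 3 mice, and H2-T24 is red in Day 2 and Day 3 males.

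A gene passed the test when its Benjamini-Hochberg adjusted p from edgeR's quasi-likelihood test over all genes tested was under 0.05. All 27 members passed the filter on low counts in every comparison. In males at Day 3, 13 members fell and 1 rose, 14 of 27, where 24.5% of all 15908 genes passed (13.1% lower and 11.4% higher). In females at Day 3, 9 members fell and none rose, where 5.54% of 17065 genes passed (4.28% lower and 1.26% higher). In females at Day 2, 2 fell, H2-Eb1 and H2-Aa, where 1.93% of 16541 genes passed (1.16% lower and 0.774% higher). In males at Day 5, H2-T22 alone fell, where 19.2% of 14969 genes passed (10.2% lower and 8.98% higher). The median log2 difference from Day 0 over the 27 members was -0.54 in males and -0.86 in females at Day 3, beside 0.02 and 0.03 over all genes tested. The study's threshold for a DEG, a log fold change over 1.5 with no base given, was read here as an absolute log2 fold change. With that threshold as well, 6 members remained at Day 3 in males and 6 in females, beside 3.72% and 2.48% of all genes. At Day 2 this left 1 member in females and none in males, beside 1.41% and 0.716% of all genes, and at Day 5 none in either sex, beside 7.53% in males and 0.228% in females.

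No member passed edgeR's test in males at Day 2 or in females at Day 5, where 3.16% (1.35% lower and 1.81% higher) and 0.258% (0.0738% lower and 0.185% higher) of all genes did. At an unadjusted p under 0.05 there were 7 members at Day 2 in males, where 29% of all genes were under that limit, and 12 at Day 5 in females, where 15.7% were. For the same comparisons the Wald test of DESeq2 called 5 and 6 members, beside 2866 of 31413 genes (9.12%) and 703 of 29602 (2.37%). The DESeq2 shares here and below are over all genes with any count. EdgeR and voom tested 16051 and 16260 genes after the filter on low counts, so the DESeq2 shares have a larger base and are not comparable. Limma voom with sample quality weights called 12 and 13 members, beside 46.4% and 18.9% of the filtered genes. One call appeared in males at Day 2 without Day 0 mouse 3 or without Day 0 mouse 4, beside 14% of all genes in both fits, and 8 calls in females at Day 5 without Day 0 mouse 4, beside 12.6%.

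The number of calls at Day 3 moved with single mice, among the members and among all genes. In males the 14 calls became 9 without Day 0 mouse 2 (14.2% of all genes), 7 without Day 3 mouse 1, 2 or 4 (6.38% to 7.98%), and 6 without Day 3 mouse 3 (4.18%), and lay between 12 and 16 without the others (17.8% to 38.6%). Cd74, H2-Aa, H2-Ab1, H2-Eb1, H2-DMa and H2-Q10 of the males passed with any single mouse left out. In females the 9 calls went to 0 without any one of Day 0 mice 1, 2 and 3 or Day 3 mice 1, 3 and 4, where at most 0.00577% of all genes passed, to 8 without Day 3 mouse 2 (3.15% of all genes) and to 13 without Day 0 mouse 4 (39.1%). The highest adjusted p among the female members that passed was then 0.168, with no change of sign. Both female calls at Day 2 were lost without Day 0 mouse 1 or 2 or any Day 2 mouse, where 0.125% to 0.965% of all genes passed, and 13 members passed without Day 0 mouse 4, where 28.3% of all genes did. Without female Day 0 mouse 2 and female Day 3 mouse 2, which had the most Alb in this comparison, and with female Day 0 mouse 3 kept, 4 members passed at Day 3, namely H2-Eb1, H2-Aa, Cd74 and H2-Ab1, where 0.79% of all genes did.

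Cd74, the invariant chain that escorts new class II molecules and blocks their groove, is at chr18:60803848-60812646 and was the most abundant class II gene per length, with a Day 0 mean of 165 FPKM in males and 185 in females. Cd74 in males stood at 195, 198, 324 and 229 CPM at Day 0, 153, 102, 96.3 and 229.8 at Day 2, 62.6, 81.1, 68.4 and 78.9 at Day 3 and 70.8, 172, 58.02 and 282 at Day 5. In females Cd74 stood at 293, 353, 281 and 123 CPM at Day 0, 155, 63.9, 57.5 and 71.1 at Day 2, 35.7, 103, 47.5 and 34.7 at Day 3 and 44.9, 136, 91.6 and 69.1 at Day 5. Every Day 3 mouse lay below every Day 0 mouse in both sexes. The same held for 14 of 27 members and 15.8% of all 18220 genes in males, and for 10 members and 8.8% of all genes in females. No such share was computed for Day 2, for Day 5 or for groups that lay above Day 0. Separations of those kinds, here and below, are descriptions without a share of all genes beside them. For Cd74 the Day 5 males were spread from below the lowest to near the highest Day 0 male. Cd74 fell by Day 3 in males (log2 fold change -1.71, SE 0.20, edgeR adjusted p = 0.00376) and in females (-2.26, SE 0.44, edgeR adjusted p = 0.0465). At Day 2 the differences were -0.70 ± 0.30 (SE) in males and -1.60 ± 0.41 in females, and neither passed (edgeR adjusted p = 0.167 and 0.0571).

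H2-Aa and H2-Ab1 encode the alpha and beta chains of the class II molecule A, at chr17:34282744-34287827 and chr17:34263209-34269418 of GRCm38. H2-Aa in males stood at 72.01, 68.8, 76.3 and 87.4 CPM at Day 0, 63.1, 40.5, 40.8 and 85.6 at Day 2, 22.03, 36.2, 28.6 and 34.3 at Day 3 and 28.8, 87.8, 32.7 and 144 at Day 5. H2-Aa in females stood at 90.7, 115, 66.2 and 49.2 CPM at Day 0, 39.3, 22.3, 22.2 and 31.5 at Day 2, 11.7, 38.4, 16.3 and 14.5 at Day 3 and 20.2, 53.3, 35.9 and 23.3 at Day 5. All Day 3 mice were below all Day 0 mice of their sex, and so were the Day 2 females, while Day 2 male mouse 4 was as high as a Day 0 male. H2-Aa fell by Day 3 in males (-1.33, SE 0.17, edgeR adjusted p = 0.00487) and in females (-2.01, SE 0.41, edgeR adjusted p = 0.0465), and by Day 2 in females (-1.48, SE 0.31, edgeR adjusted p = 0.0433). H2-Ab1 in males stood at 80.2, 97.1, 156 and 98.03 CPM at Day 0, 63.7, 35.9, 37.998 and 86.4 at Day 2, 21.9, 32.1, 25.9 and 32.6 at Day 3 and 31.7, 66.4, 23.2 and 109 at Day 5. H2-Ab1 in females stood at 119, 149.7, 124 and 57.5 CPM at Day 0, 62.9, 27.3, 26.8 and 34.7 at Day 2, 15.8, 41.2, 24.2 and 18.4 at Day 3 and 22.1, 53.3, 38.4 and 32.1 at Day 5. The groups at Day 3 and Day 0 did not overlap in either sex. H2-Ab1 fell by Day 3 in males (-1.94, SE 0.24, edgeR adjusted p = 0.00416) and in females (-2.19, SE 0.37, edgeR adjusted p = 0.0465).

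H2-Eb1 encodes the beta chain of the class II molecule E at chr17:34305877-34316199, and its upstream stretch held both the X box core and the Y box. C57BL/6 mice do not transcribe the matching alpha chain gene, so that this transcript has no partner for a surface molecule. H2-Eb1 in males stood at 84.7, 97.9, 171 and 112 CPM at Day 0, 63.2, 39.7, 38.6 and 92.5 at Day 2, 23.6, 33.8, 28.3 and 32.8 at Day 3 and 33.9, 91.1, 33.7 and 149.5 at Day 5. H2-Eb1 in females stood at 123, 184, 145 and 67.8 CPM at Day 0, 51.5, 25.3, 27.3 and 33.6 at Day 2, 16.2, 43.9, 19.7 and 17.3 at Day 3 and 20.4, 63.04, 41.4 and 28.9 at Day 5. Day 2 females, Day 3 females and Day 5 females all lay below the lowest Day 0 female, and female Day 3 mouse 2 was the highest of its group. H2-Eb1 had the lowest log2 fold change of the class II genes at Day 3 in both sexes, -1.98, SE 0.24, edgeR adjusted p = 0.00416 in males and -2.44, SE 0.41, edgeR adjusted p = 0.0465 in females. It also fell by Day 2 in females (-1.92, SE 0.34, edgeR adjusted p = 0.0298), beside -0.99 ± 0.33 (SE) in males, which did not pass (edgeR adjusted p = 0.0962). At Day 5 the difference was -1.75 ± 0.40 in females and -0.54 ± 0.49 in males, and neither passed (edgeR adjusted p = 0.115 and 0.455).

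**Figure D2:**
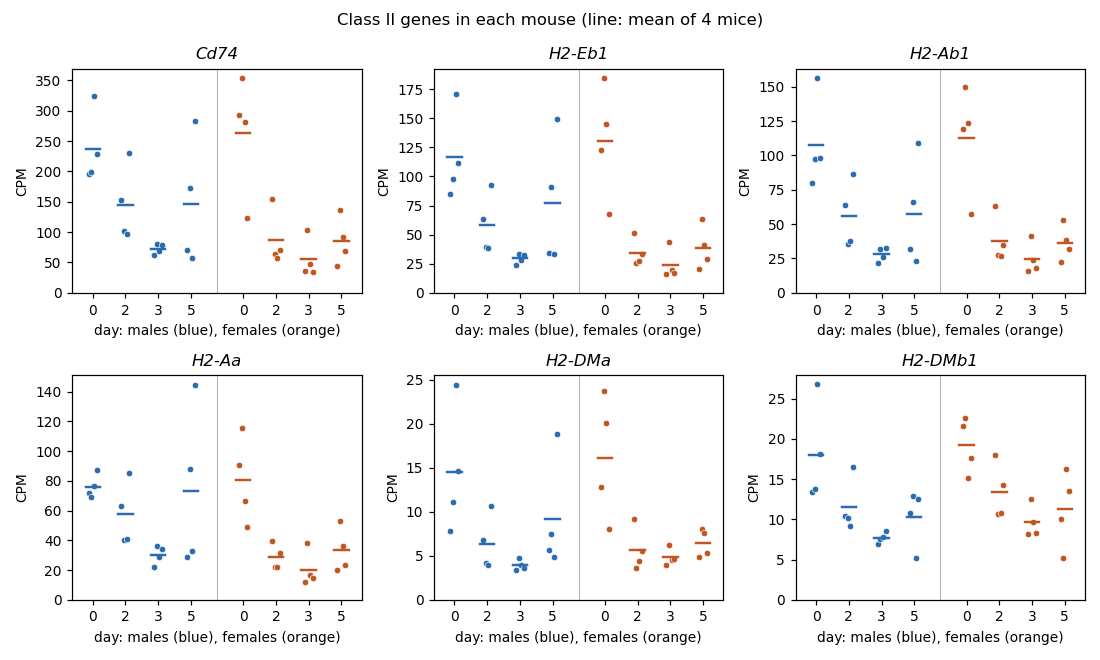
CPM (linear axis from 0) of Cd74, H2-Eb1, H2-Ab1, H2-Aa, H2-DMa and H2-DMb1 in each mouse by day, males in blue and females in orange, with the mean of 4 mice as a line. Day 3 mice sit below all Day 0 mice of their sex for all 6 genes, as for 15.8% of all genes in males and 8.8% in females, and Day 5 males are widely spread, from 58.0 to 282 CPM for Cd74.

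H2-DMa, H2-DMb1 and H2-DMb2 form the peptide-exchange molecule DM, which removes the Cd74 fragment from the class II groove, and H2-Ob is a chain of its inhibitor O. H2-DMa in males stood at 7.76, 11.1, 24.4 and 14.7 CPM at Day 0, 6.73, 4.14, 3.896 and 10.6 at Day 2, 3.34, 4.79, 3.91 and 3.62 at Day 3 and 5.65, 7.43, 4.84 and 18.8 at Day 5. H2-DMa in females stood at 12.8, 23.8, 20.04 and 7.99 CPM at Day 0, 9.12, 3.605, 4.43 and 5.52 at Day 2, 3.89, 6.18, 4.57 and 4.62 at Day 3 and 4.81, 8.06, 7.62 and 5.36 at Day 5. The Day 3 values were below all Day 0 values in both sexes. H2-DMa fell by Day 3 in males (-1.90, SE 0.35, edgeR adjusted p = 0.01099) and in females (-1.76, SE 0.34, edgeR adjusted p = 0.0465). H2-DMb1 in males stood at 13.3, 13.8, 26.8 and 18.1 CPM at Day 0, 10.4, 10.1, 9.12 and 16.5 at Day 2, 6.97, 7.49, 7.75 and 8.59 at Day 3 and 10.8, 12.9, 5.16 and 12.5 at Day 5. H2-DMb1 in females stood at 21.6, 22.6, 15.1 and 17.6 CPM at Day 0, 17.97, 10.7, 10.8 and 14.2 at Day 2, 8.18, 12.6, 9.63 and 8.35 at Day 3 and 10.1, 5.17, 16.3 and 13.5 at Day 5. Its change was smaller than that of H2-DMa in both sexes, -1.23, SE 0.24, edgeR adjusted p = 0.0127 at Day 3 in males and -1.01, SE 0.21, edgeR adjusted p = 0.0465 in females, and that difference between genes was not tested.

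H2-DMb2 was near the count minimum, with 8 to 58 counts in each male library of Days 0, 2 and 3. H2-DMb2 in males stood at 1.09, 1.401, 1.35 and 3.34 CPM at Day 0, 0.878, 1.04, 0.321 and 0.962 at Day 2, 0.709, 0.618, 0.456 and 0.428 at Day 3 and 1.23, 2.53, 1.13 and 1.97 at Day 5. H2-DMb2 in females stood at 3.93, 2.14, 0.833 and 1.13 CPM at Day 0, 0.912, 0.3004, 0.339 and 0.614 at Day 2, 0.223, 0.848, 0.5398 and 0.228 at Day 3 and 0.212, 0, 0.0686 and 0.558 at Day 5. Among Day 5 females, 1 library had 0 counts and another 2. H2-DMb2 fell by Day 3 in males (-1.69, SE 0.45, edgeR adjusted p = 0.0307), and in females the difference was -2.13 ± 0.65 (SE; edgeR adjusted p = 0.0704). H2-Ob lay between 0 and 3.09 CPM over all 32 mice and passed in no comparison, with -1.26 ± 0.64 (SE) in males and -1.66 ± 0.96 in females at Day 3. All 8 class II genes were thus on the negative side at Days 2 and 3 in both sexes, with medians of -0.83 and -1.70 in males and -1.54 and -2.07 in females. Of the 8, 7 fell by Day 3 in males, where 13.1% of all genes were lower, and 6 in females, where 4.28% were, and none rose.

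**Figure D3:**
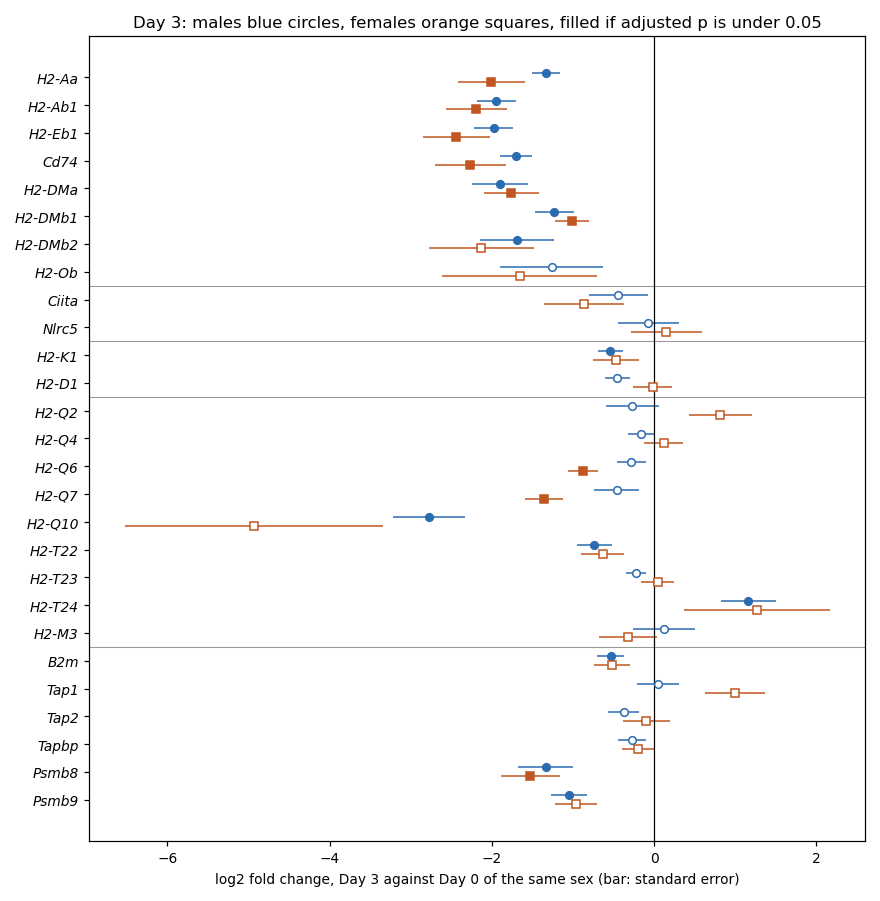
Log2 fold change of each member at Day 3 against Day 0 of the same sex, with the standard error as a bar, males as blue circles and females as orange squares, filled where the adjusted p was under 0.05. Class II genes at the top lie between -1.01 and -2.44, and the class Ia genes H2-K1 and H2-D1 between -0.02 and -0.54.

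Ciita, the class II transactivator (chr16:10480059-10528418), was low in the whole kidney, with a Day 0 mean of 0.292 FPKM in males and 0.309 in females, and 14 to 173 counts per library. Ciita in males stood at 2.39, 2.85, 1.57 and 4.602 CPM at Day 0, 5.06, 2.07, 3.09 and 3.7003 at Day 2, 1.54, 2.28, 1.82 and 2.72 at Day 3 and 1.399, 3.57, 2.26 and 2.53 at Day 5. Ciita in females stood at 3.31, 2.94, 1.52 and 4.13 CPM at Day 0, 2.28, 1.02, 1.02 and 1.73 at Day 2, 1.19, 3.24, 1.46 and 0.741 at Day 3 and 1.59, 3.37, 0.652 and 1.29 at Day 5. The groups overlapped between Day 0 and Day 3 in both sexes. The Day 3 difference was -0.44, SE 0.36, edgeR adjusted p = 0.383 in males and -0.86, SE 0.49, edgeR adjusted p = 0.2604 in females. Dexi, on the opposite strand, overlaps the Ciita gene over 25888 bp with a mean count of 452, and the strandedness of the counting is not given in the sources used here.

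Nlrc5, the corresponding activator of class I genes (chr8:94434356-94527272), was likewise low, with 20 to 252 counts per library. Nlrc5 in males stood at 1.899, 3.45, 5.18 and 7.19 CPM at Day 0, 7.02, 3.205, 5.02 and 9.32 at Day 2, 5.21, 4.21, 3.65 and 3.85 at Day 3 and 3.41, 4.61, 4.19 and 7.3001 at Day 5. Nlrc5 in females stood at 3.02, 3.63, 0.9799 and 5.21 CPM at Day 0, 2.703, 2.96, 2.96 and 3.104 at Day 2, 3.05, 4.06, 3.87 and 3.51 at Day 3 and 3.33, 2.65, 2.26 and 2.27 at Day 5. The 4 Day 2 males and Day 0 males overlapped, as did all female groups. Nlrc5 passed in no comparison. Its Day 3 difference was -0.07 ± 0.38 (SE) in males and 0.15 ± 0.43 in females (edgeR adjusted p = 0.897 and 0.827).

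The class Ia heavy chains H2-K1 (chr17:33996017-34000333) and H2-D1 (chr17:35262730-35267499) had Day 0 means of 115 and 124 FPKM in males and 138 and 108 FPKM in females. H2-K1 in males stood at 259, 273, 358 and 335 CPM at Day 0, 241, 236, 225 and 397 at Day 2, 242, 195, 210.01 and 198 at Day 3 and 237, 295, 367 and 342 at Day 5. H2-K1 in females stood at 356, 574, 301 and 222 CPM at Day 0, 337, 237, 238 and 210.1 at Day 2, 260.3, 226, 283 and 287 at Day 3 and 313, 212, 330.3 and 265 at Day 5. Day 3 males lay below all Day 0 males, and the female groups overlapped. H2-K1 fell by Day 3 in males (-0.54, SE 0.16, edgeR adjusted p = 0.0378), and in females the difference was -0.47 ± 0.28 (SE; edgeR adjusted p = 0.2796). The male call held in 3 of 8 repeats with 1 mouse left out and in 5 of 8 other settings, with a highest adjusted p of 0.110.

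H2-D1 in males stood at 298, 315, 304 and 389.7 CPM at Day 0, 267, 269.99, 248 and 476 at Day 2, 288, 225, 228 and 214 at Day 3 and 266, 413, 501 and 441 at Day 5. H2-D1 in females stood at 309, 360.4, 191 and 267 CPM at Day 0, 401, 269, 289.9 and 226 at Day 2, 291, 209.9, 294 and 329.7 at Day 3 and 361, 260.5, 322 and 294 at Day 5. Male Day 2 mouse 4 was far above the other Day 2 males for H2-D1 and for H2-K1. H2-D1 passed in no comparison, and its Day 3 difference was -0.45, SE 0.15, edgeR adjusted p = 0.0586 in males and -0.02, SE 0.24, edgeR adjusted p = 0.966 in females. Without female Day 0 mouse 2 and female Day 3 mouse 2 the Day 3 difference of H2-D1 in females was 0.24 ± 0.25 (SE; edgeR adjusted p = 0.608), on the other side of 0. The direction of the class Ia sum in Day 3 females depended on the scaling. As shares of the non-mitochondrial counts without TMM, the sum was 0.12 on the log2 scale above Day 0 in Day 3 females, in place of -0.24, and -0.23 in Day 3 males, in place of -0.49. The class II sum was lower at Day 3 under that scaling too, at -1.43 in males and -1.76 in females, in place of -1.72 and -2.16. That scaling moved the median of all genes at Day 3 to 0.27 in males and 0.40 in females, from 0.02 and 0.07, and the members below Day 0 from 24 to 19 and from 21 to 18. At Day 5 in males, 12 of 27 members were below Day 0 with TMM, 9 with non-mitochondrial counts and 27 with total counts, where the median of all genes was -1.10.

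**Figure D4:**
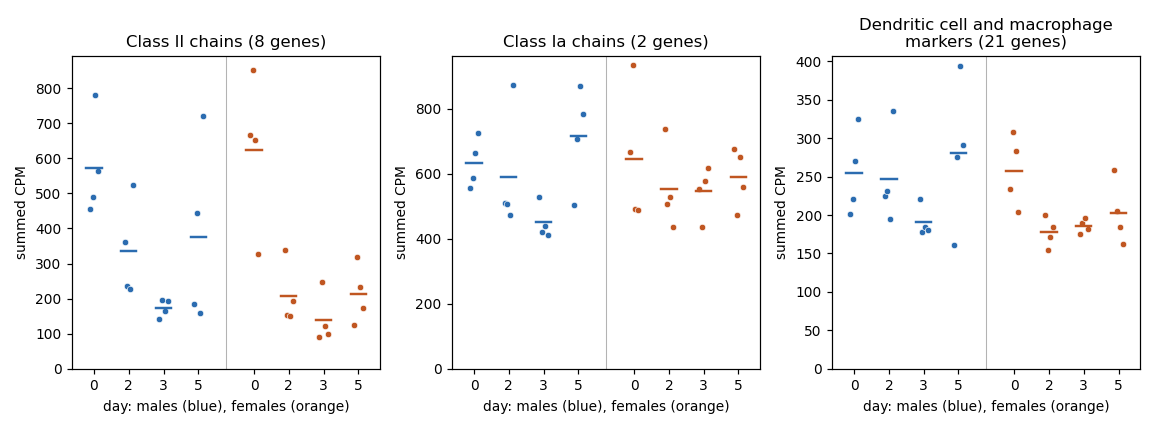
Summed CPM (linear axes from 0) of the 8 class II genes, the 2 class Ia genes and the 21 dendritic cell and macrophage markers in each mouse by day, males in blue and females in orange, with means as lines. The class II sum at Day 3 is 142 to 197 CPM in males and 91.9 to 247 in females, below all Day 0 mice, while the class Ia sums overlap in females.

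Class Ib heavy chains are less variable relatives of class Ia, and their near-identical copies (the H2-Q, H2-T, H2-K and H2-D genes) share sequence, so the counting could have split reads among them and single values are uncertain. Of the 9, 2 fell and 1 rose by Day 3 in males, where 13.1% of all genes were lower and 11.4% higher, and 2 fell in females, where 4.28% were lower. H2-T22, a ligand of some gamma delta T cells, stood in males at 113, 119.997, 169 and 78.4 CPM at Day 0, 79.5, 82.4, 80.4 and 102 at Day 2, 72.3, 73.5, 68.8 and 74.8 at Day 3 and 61.1, 53.2, 51.4 and 60.6 at Day 5. H2-T22 in females stood at 103, 122, 128 and 50.8 CPM at Day 0, 93.8, 63.7, 72.7 and 77.4 at Day 2, 61.9, 66.9, 63.3 and 71.3 at Day 3 and 83.6, 64.4, 97.1 and 76.9 at Day 5. The 4 Day 3 males and the 4 Day 5 males lay below every Day 0 male. H2-T22 fell by Day 3 (-0.74, SE 0.21, edgeR adjusted p = 0.0373) and by Day 5 in males (-1.03, SE 0.25, edgeR adjusted p = 0.0225), and in females the Day 3 difference was -0.63 ± 0.27 (SE; edgeR adjusted p = 0.146). The Day 5 call was lost without Day 0 mouse 1 or 2 or Day 5 mouse 2, 3 or 4 (highest edgeR adjusted p = 0.0732).

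H2-T24 was the 1 member that rose. H2-T24 in males stood at 1.52, 1.601, 1.13 and 3.39 CPM at Day 0, 4.95, 4.596, 4.18 and 6.33 at Day 2, 3.96, 3.98, 4.79 and 4.32 at Day 3 and 2.18, 2.23, 3.71 and 1.68 at Day 5. H2-T24 in females stood at 1.33, 0.6599, 0 and 3.86 CPM at Day 0, 3.39, 3.54, 3.25 and 3.21 at Day 2, 3.57, 4.398, 3.801 and 2.68 at Day 3 and 2.16, 3.25, 1.27 and 3.05 at Day 5. All Day 2 and Day 3 males lay above all Day 0 males, while the Day 0 females ranged from 0 counts to 143 counts in mouse 4. H2-T24 rose by Day 3 in males (1.16, SE 0.34, edgeR adjusted p = 0.0408), with 1.41 ± 0.37 (SE; edgeR adjusted p = 0.0618) at Day 2. In females the Day 3 difference was 1.27 ± 0.90 (SE; edgeR adjusted p = 0.352). The male call held in 2 of 8 repeats with 1 mouse left out and in 5 of 8 other settings.

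H2-Q6 and H2-Q7 are neighbours, at chr17:35424850-35430055 and chr17:35439155-35443773, and H2-Q7 encodes a form of the surface molecule Qa-2. H2-Q6 in males stood at 39.6, 36.4, 40.6 and 59.9 CPM at Day 0, 55.8, 45.2, 50.7 and 71.9 at Day 2, 33.96, 37.5, 41.4 and 32.7 at Day 3 and 41.9, 19.01, 23.2 and 36.1 at Day 5. H2-Q6 in females stood at 70.5, 83.4, 58.2 and 61.8 CPM at Day 0, 77.7, 32.1, 37.1 and 50.4 at Day 2, 29.4, 45.9, 37.7 and 37.5 at Day 3 and 34.4, 32.5, 56.3 and 53.7 at Day 5. H2-Q6 fell by Day 3 in females (-0.88, SE 0.18, edgeR adjusted p = 0.0467), with all Day 3 females below all Day 0 females, beside -0.28 ± 0.18 (SE; edgeR adjusted p = 0.261) in males. H2-Q7 in males stood at 16.3, 17.5, 36.6 and 17.6 CPM at Day 0, 21.4, 16.99, 19.96 and 23.3 at Day 2, 14.9, 17.4, 17.9 and 13.96 at Day 3 and 17.3, 9.804, 7.09 and 15.6 at Day 5. H2-Q7 in females stood at 34.6, 50.5, 40.3 and 24.7 CPM at Day 0, 30.6, 15.04, 16.01 and 17.8 at Day 2, 11.999, 17.5, 14.2 and 15.5 at Day 3 and 19.5, 16.1, 27.6 and 24.2 at Day 5. H2-Q7 also fell by Day 3 in females (-1.36, SE 0.23, edgeR adjusted p = 0.0465), beside -0.46 ± 0.27 (SE; edgeR adjusted p = 0.234) in males. The sex difference in the Day 3 response did not pass for either gene (0.58 ± 0.25 and 0.88 ± 0.36, SE, male minus female; edgeR adjusted p = 0.646 and 0.614).

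H2-Q10, at chr17:35470089-35474563, encodes a secreted class Ib molecule made by the liver. H2-Q10 in males stood at 3.202, 2.15, 2.81 and 6.73 CPM at Day 0, 1.61, 2.04, 1.29 and 0.814 at Day 2, 0.542, 0.5404, 0.342 and 0.739 at Day 3 and 3.92, 17.97, 2.74 and 12.4 at Day 5, from 43 to 117 counts per library at Day 0 and 9 to 19 at Day 3. H2-Q10 in females stood at 3.44, 284, 4.46 and 7.37 CPM at Day 0, 1.01, 0.832, 0.875 and 1.697 at Day 2, 1.36, 5.74, 1.75 and 1.05 at Day 3 and 2.51, 5.53, 0.652 and 1.201 at Day 5. Female Day 0 mouse 2 was at 284 CPM, and the other Day 0 mice of both sexes lay between 2.15 and 7.37 CPM. The same library had Alb at 6973 CPM, with 9.87 to 149 CPM in the other Day 0 females, and female Day 3 mouse 2, the highest of its group for H2-Q10, had Alb at 265 CPM. Female Day 5 mouse 2 (Alb at 74.1 CPM) and male Day 2 mouse 2 (Alb at 41.6 CPM) were also the highest of their groups for both genes. Male Day 5 mouse 2 (Alb at 0.743 CPM) and male Day 0 mouse 4 (Alb at 1.61 CPM) were the highest of their groups for H2-Q10 and the lowest for Alb. Hepatocyte markers summed to 80.3 to 279 CPM in Day 0 males and 60.2 to 84.4 CPM in Day 3 males. H2-Q10 fell by Day 3 in males (-2.77, SE 0.44, edgeR adjusted p = 0.00819), where 2 of 4 hepatocyte markers tested also fell, Apoa2 (-1.30 ± 0.34, SE) and Ttr (-1.67 ± 0.36), beside 13.1% of all genes lower. Alb stood at 1.61 to 6.13 CPM in Day 0 males and 3.004 to 5.02 CPM in Day 3 males (-0.15 ± 0.38, SE; edgeR adjusted p = 0.786). In females the Day 3 difference was -4.93 ± 1.59 (SE; edgeR adjusted p = 0.0825), and -1.88 ± 0.42 (edgeR adjusted p = 0.103) without female Day 0 mouse 2 and female Day 3 mouse 2, a fit that keeps female Day 0 mouse 3 with its Alb at 149 CPM. Whether liver RNA carried along with the kidney set these levels was not tested.

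**Figure D5:**
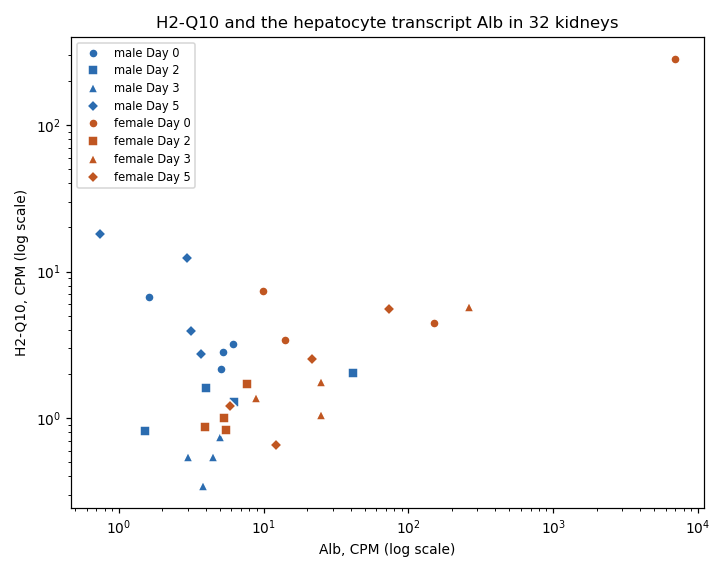
H2-Q10 against Alb, both in CPM on log axes, in 32 kidneys, by sex (color) and day (symbol). Female Day 0 mouse 2 lies alone at the upper right with 284 CPM of H2-Q10 and 6973 CPM of Alb, while Day 5 males reach 18.0 CPM of H2-Q10 at Alb of 3.71 CPM or less.

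H2-Q2 was near the count minimum of 10, with 2 to 92 counts per library. H2-Q2 in males stood at 1.25, 0.8503, 1.42 and 0.863 CPM at Day 0, 0.585, 1.101, 1.12 and 1.702 at Day 2, 1.001, 0.888, 0.874 and 0.894 at Day 3 and 2.97, 1.63, 1.45 and 1.404 at Day 5. H2-Q2 in females stood at 1.103, 0.962, 0.4899 and 1.11 CPM at Day 0, 1.79, 2.06, 2.597 and 1.299 at Day 2, 1.83, 1.21, 1.48 and 2.05 at Day 3 and 1.91, 2.05, 0.0686 and 1.201 at Day 5. Day 2 and Day 3 females lay above all Day 0 females, but neither difference passed (1.07 ± 0.43 and 0.82 ± 0.38, SE; edgeR adjusted p = 0.154 and 0.181). The other class Ib genes passed in no comparison. H2-T23, whose product Qa-1 is read by inhibitory receptors of natural killer cells, lay between 70.4 and 130 CPM over all mice, with Day 3 differences of -0.23 in males and 0.04 in females. H2-Q4 lay between 13.7 and 62.1 CPM, and H2-M3, which presents formylated bacterial peptides, between 0.803 and 4.70 CPM.

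Among the genes of peptide supply and assembly, Psmb8 fell by Day 3 in both sexes and Psmb9 and B2m in males, and the transporter and tapasin genes passed in no comparison. Psmb8, a catalytic subunit that replaces its housekeeping counterpart in the immunoproteasome (chr17:34197721-34201454), stood in males at 13.1, 11.1, 31.8 and 16.6 CPM at Day 0, 9.48, 8.48, 7.71 and 15.7 at Day 2, 8.802, 7.798, 6.69 and 5.5999 at Day 3 and 7.38, 27.2, 20.1 and 33.97 at Day 5. Psmb8 in females stood at 18.4, 36.6, 26.1 and 9.69 CPM at Day 0, 10.8, 7.12, 7.23 and 7.83 at Day 2, 7.66, 6.41, 8.84 and 8.86 at Day 3 and 10.1, 17.1, 11.6 and 6.39 at Day 5. All Day 3 mice lay below all Day 0 mice of their sex. Psmb8 fell by Day 3 in males (-1.34, SE 0.34, edgeR adjusted p = 0.0268) and in females (-1.53, SE 0.36, edgeR adjusted p = 0.04804). With voom and sample quality weights the male value was -0.78 ± 0.15 (SE; adjusted p = 0.000752).

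Psmb9, the second such subunit here (chr17:34181988-34187764), stood in males at 8.47, 8.25, 14.999 and 10.3 CPM at Day 0, 8.69, 5.79, 5.66 and 10.3 at Day 2, 4.92, 5.404, 5.01 and 5.02 at Day 3 and 7.38, 16.04, 11.6 and 18.5 at Day 5. Psmb9 in females stood at 12.2, 16.8, 10.9 and 7.72 CPM at Day 0, 8.34, 4.55, 5.84 and 5.45 at Day 2, 5.65, 5.604, 7.17 and 6.21 at Day 3 and 7.22, 13.5, 6.83 and 6.13 at Day 5. Psmb9 fell by Day 3 in males (-1.05, SE 0.22, edgeR adjusted p = 0.0155), and in females the difference was -0.96 ± 0.25 (SE; edgeR adjusted p = 0.05303). Day 3 values lay below Day 0 values in both sexes. Psmb10, a further immunoproteasome subunit outside the rule, fell in males as well (-1.32, SE 0.37, edgeR adjusted p = 0.0349).

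B2m, the light chain of every class I molecule (chr2:122147686-122153083), stood in males at 211, 234, 292 and 321 CPM at Day 0, 179, 192, 172 and 298 at Day 2, 199.98, 169, 184 and 178 at Day 3 and 179.6, 301, 331 and 291 at Day 5. B2m in females stood at 267, 412, 239 and 275 CPM at Day 0, 188, 181, 214 and 178 at Day 2, 190.3, 173, 230.2 and 244 at Day 3 and 264, 158, 252 and 204 at Day 5. Per length it was the most abundant member at Day 0, with means of 302 FPKM in males and 344 in females. B2m fell by Day 3 in males (-0.54, SE 0.16, edgeR adjusted p = 0.0435), with all Day 3 males below all Day 0 males, and in females the difference was -0.52 ± 0.22 (SE; edgeR adjusted p = 0.1495). The male call held in 2 of 8 repeats with 1 mouse left out and in 5 of 8 other settings, and the value with voom was -0.34 ± 0.08 (SE; adjusted p = 0.00326).

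Tap1 and Tap2 form the peptide transporter of the endoplasmic reticulum, and Tapbp (tapasin) ties it to class I molecules. Tap1 lay between 6.47 and 38.6 CPM over all mice, with means of 12.4 ± 4.18 CPM (SD, n = 4) in Day 0 females, 28.3 ± 7.09 in Day 2 females and 24.99 ± 9.35 in Day 3 females. All Day 2 females lay above all Day 0 females, but the difference did not pass (1.19, SE 0.31, edgeR adjusted p = 0.0595). The Day 3 difference was 0.99 ± 0.37 (SE) in females and 0.05 ± 0.26 in males. Tap1 and Psmb9 overlap over 212 bp on opposite strands and share 275 bases of their upstream windows, and without knowledge of strand reads of that overlap cannot be told apart. Tap2 lay between 9.11 and 31.4 CPM and Tapbp between 76.2 and 171 CPM, with Day 3 differences of -0.38 and -0.27 in males and -0.10 and -0.20 in females.

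Between males and females no member passed edgeR's test at Day 0, Day 2 or Day 5, where 0.449%, 1.47% and 0.276% of all genes passed. Lower in males were 0.212%, 0.578% and 0.0591% of all genes, and higher 0.237%, 0.891% and 0.217%. At an unadjusted p under 0.05 there were 3, 6 and 8 members, beside 8.04%, 15% and 20.3% of all genes. The Wald test of DESeq2 called 0, 3 and 1, beside 1.33%, 2.66% and 3.63% of all genes with any count. Limma voom with sample quality weights called 8, 6 and 15, beside 25.2%, 19% and 29.7% of the filtered genes. Leaving out mouse 2 of the Day 2 males gave 1 call (0.843% of all genes), and leaving out mouse 1 of the Day 5 males gave 2 (17%). At Day 3, 3 members were lower in males than in females and none higher, where 21.3% of all genes passed (10.7% lower and 10.6% higher in males), a share above the members' own. These were H2-Q2 (-0.87, SE 0.22, edgeR adjusted p = 0.0201), H2-K1 (-0.35, SE 0.10, edgeR adjusted p = 0.0371) and H2-Q10 (-2.23, SE 0.60, edgeR adjusted p = 0.0305). Without female Day 3 mouse 2, the mouse with Alb at 265 CPM, the H2-Q10 difference was -1.39 ± 0.30 (SE; edgeR adjusted p = 0.00562), and without any 1 of the Day 3 males the H2-Q10 call was lost (highest edgeR adjusted p = 0.0892). The 3 calls became 0 without Day 3 male mouse 2, 3 or 4, 1 without Day 3 female mouse 1 and 12 without Day 3 female mouse 2, and 2 without any other, with 34.6% of all genes passing without female mouse 2 and 11.1% to 17.4% otherwise. With the DEG threshold as well, 1 member remained at Day 3, beside 1.93% of all genes, and none at Day 0, 2 or 5, beside 0.362%, 0.813% and 0.236%. Class II genes were not among the 3, with a median difference of 0.23 (male minus female).

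The sexes were also compared in their response, as the male change from Day 0 minus the female change. No member passed edgeR's test at Day 2, Day 3 or Day 5, where 0%, 0.0114% and 0.243% of all genes did. At Day 3, 0.00568% were on each side, and at Day 5 0.154% were lower and 0.0887% higher. At an unadjusted p under 0.05 there were 4, 3 and 3 members, beside 4.23%, 7.11% and 15.2% of all genes. The Wald test of DESeq2 called 0, 0 and 1, beside 0.0824%, 0.222% and 2.02% of all genes with any count. Limma voom with sample quality weights called 8, 5 and 15, beside 11.2%, 12% and 32.5% of the filtered genes. For the class II genes the median difference was 0.67 at Day 2, 0.39 at Day 3 and 1.09 at Day 5. At Day 3 it was 0.54 ± 0.49 (SE) for Cd74 and 0.44 ± 0.47 for H2-Eb1 (edgeR adjusted p = 0.935 and 0.957).

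Of 21 other genes of antigen processing tested, 5 fell and 1 rose by Day 3 in males, beside 24.5% of all genes, with a list median of -0.20. Ifi30, a thiol reductase of the class II pathway, fell (-0.65, SE 0.11, edgeR adjusted p = 0.00925), as did the protease Ctsb (-0.58, SE 0.16, edgeR adjusted p = 0.0324). Erap1, which trims peptides for class I, rose (0.56, SE 0.11, edgeR adjusted p = 0.0144). In females none of the 21 passed edgeR's test at Day 3, where 5.54% of all genes did, 8 had an unadjusted p under 0.05, beside 30.7% of all genes, and the list median was -0.28. Between the sexes at Day 3, 7 of 21 were lower in males, where 10.7% of all genes were, with Psmb10 at -0.61 ± 0.11 (SE), Ctsb at -0.39 ± 0.08, Psme1 at -0.39 ± 0.08 and Cd1d1 at -1.63 ± 0.39.

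Of 15 promoter factors of MHC genes, 3 fell and 2 rose by Day 3 in males, where 13.1% of all genes were lower and 11.4% higher. Spi1 (PU.1), a factor of myeloid cells, fell (-1.17, SE 0.24, edgeR adjusted p = 0.0144), while Creb1, which binds the X box region, rose (0.46, SE 0.11, edgeR adjusted p = 0.0232) and Nfkb1 rose (0.44, SE 0.12, edgeR adjusted p = 0.0327). In females, where 5.54% of all genes passed at Day 3, 1 of 15 did, Batf3, a factor of cross-presenting dendritic cells, which fell by Day 2 (-2.97, SE 0.48, edgeR adjusted p = 0.0193) and by Day 3 (-2.79, SE 0.50, edgeR adjusted p = 0.0465). In the interferon gamma list, 3 of 14 tested fell and 2 rose by Day 3 in males, and 1 fell and 1 rose in females, beside the same shares of all genes. Cxcl9, a chemokine induced by interferon gamma, fell by Day 3 in males (-1.88, SE 0.35, edgeR adjusted p = 0.0111) and in females (-2.80, SE 0.57, edgeR adjusted p = 0.0465). Cxcl10, a chemokine of the same receptor, rose in males (1.28, SE 0.26, edgeR adjusted p = 0.0146) and in females (2.73, SE 0.60, edgeR adjusted p = 0.0478). Jak2 rose in males (0.52, SE 0.11, edgeR adjusted p = 0.01599).

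The 21 dendritic cell and macrophage markers summed to 201 to 324 CPM in Day 0 males, 179 to 221 in Day 3 males, 204 to 308 in Day 0 females and 175 to 196 in Day 3 females, with none at 0 in any Day 3 library. By Day 3 in males 3 of 19 tested fell and 2 rose, beside 24.5% of all genes, with a list median of -0.57. Csf1r (-0.57 ± 0.14, SE), C1qc (-1.05 ± 0.26) and C1qa (-1.55 ± 0.45) of macrophages fell, and Zbtb46 (1.08 ± 0.13), which endothelium also expresses, and Mertk (0.99 ± 0.21) rose. By Day 3 in females 2 of 21 fell, Lyz2 (-0.89 ± 0.16, SE) and C1qa (-1.81 ± 0.44), where 4.28% of all genes were lower, with a list median of -0.30. B cell markers summed to 4.202 to 17.7 CPM in Day 0 males and 2.46 to 3.72 in Day 3 males, and to 4.02 to 18.6 and 1.93 to 6.34 in females. T and NK cell markers summed to 6.35 to 15.8 CPM in Day 0 males and 2.96 to 4.83 in Day 3 males, and to 8.71 to 18.6 and 2.23 to 5.25 in females. Of the 14 listed, 8 were tested in females at Day 3 and 1 fell, Nkg7 (-3.50 ± 0.57, SE), where 4.28% of all genes were lower. In males 3 were tested and none passed. Of 9 endothelial markers 2 rose by Day 3 in males, Tek (1.24 ± 0.16, SE) and Flt1 (1.27 ± 0.18), where 11.4% of all genes were higher. In females 7 of the 9 were on the positive side with a list median of 0.41, and the 1 that passed, Emcn, fell (-1.10 ± 0.26), beside 5.54% of all genes. Of 5 fat markers 2 fell in each sex, Fabp4 (-1.90 ± 0.49, SE) and Adipoq (-1.57 ± 0.43) in males and Fabp4 (-1.32 ± 0.23) and Ucp1 (-1.94 ± 0.45) in females, where 13.1% and 4.28% of all genes were lower. Of 11 tubule and glomerulus markers 2 rose in males, Cubn (0.65 ± 0.17, SE) and Nphs1 (1.13 ± 0.31), where 11.4% of all genes were higher. The part of these cells in the change of the class II genes was not tested.

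Day 5 males had the highest SD of the class II sum among the 8 groups. The sum ranged from 159 to 722 CPM there, with B cell markers at 6.27 to 21.7 CPM, T and NK cell markers at 5.93 to 28.5 CPM, lymphoid tissue markers at 2.07 to 38.2 CPM and fat markers at 525 to 2352 CPM. Neutrophil markers summed to 11.1 to 226 CPM, against 1.41 to 2.30 CPM in Day 0 males, and all 3 tested rose, S100a8 (6.04 ± 0.93, SE), S100a9 (6.05 ± 0.97) and Csf3r (4.50 ± 1.02), beside 8.98% of all genes. Tubule and glomerulus markers summed to 2551 to 6877 CPM, against 8183 to 11340 CPM in Day 0 males. All 4 of these libraries held Xist counts against their label, as described above, with the most in mouse 1. Their part in the spread of the class II genes was not tested.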

How the data were processed

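RNA of 32 kidneys was sequenced in paired reads of 150 bp. The submitters' processing notes name HTSeq and DESeq2 and list GRCm39, while gene coordinates in the deposited table are those of GRCm38, the build the study gives. The aligner and the strandedness are not given in the sources used here. The authors deposited raw counts per gene, and FPKM values that equal the count over gene length and an effective library size, used here only to compare levels between genes. Their fold changes and p-values were not used.

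The count test was that of edgeR 4.0.16, run under R 4.3.3 (TMM factors, filterByExpr, robust quasi-likelihood F-test, Benjamini-Hochberg adjustment over all genes tested), with a fit of the groups compared for each of 13 comparisons: each day against Day 0 within a sex, males against females on each day, and the sex difference in response. A call had an adjusted p under 0.05, and a DEG also an absolute log2 fold change over 1.5. Comparisons with Day 0 share their control mice. Depth was about 16502100 to 35961300 counts per library, and p-values measure the spread between mice. Alternatives were DESeq2 1.42.0, voom of limma 3.58.1, other filters and scalings, a fit over all groups, a replicate block, and each mouse left out. Scripts were tested on simulated data. Members and gene lists were chosen with earlier results of these data known. Values in every mouse are given for members called in any comparison, class Ia genes and regulators, and ranges for the others. Genes outside the rule come from lists of antigen processing, promoter factors, the interferon gamma pathway and cell markers, where the rule was to name those that passed where a member did, up to 4 a list and comparison by smallest adjusted p. C1qa of the Day 3 males was named after its values were seen. Not every gene of that rule is named in the text, above all for Day 5 and the comparison of the sexes, and one is not reported here.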

Additional observations from a re-analysis of the deposited data

Results flagged for a closer look

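In 20 of 216 groups of 4 mice, 1 mouse stood apart from the other 3 (Dixon's ratio above its 95% critical value). That value gives about 1 in 20 groups for independent, normally distributed values. CPM of many genes in the same mice are not independent, so the 20 groups cannot be set against that rate. Male Day 2 mouse 4 stood apart in this way, above its group, for 8 members. Its values were 476 CPM for H2-D1 (next mouse 270.0), 397 for H2-K1 (241), 298 for B2m (192), 163 for Tapbp (93.9), 102 for H2-T22 (82.4), 38.6 for Tap1 (20.9), 28.6 for Tap2 (17.3) and 4.70 for H2-M3 (2.75).

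Female Day 3 mouse 2, with hepatocyte transcripts, was the highest for H2-Eb1 at 43.9 CPM (next 19.7), H2-Q10 at 5.74 (1.75) and H2-Ob at 0.938 (0.337), and the lowest for Tap2 at 15.4 (18.8). Female Day 0 mouse 2, with hepatocyte transcripts as well, was the highest for H2-Q10 at 284 CPM (7.37). Male Day 5 mouse 1, whose Xist count goes against its label, was the highest for H2-T23 at 91.2 CPM (72.8) and H2-Q2 at 2.97 (1.63). The others were Cd74 in female Day 2 mouse 1 at 155 CPM (71.1), H2-Q7 in male Day 0 mouse 3 at 36.6 (17.6), Psmb9 in female Day 5 mouse 2 at 13.5 (7.22), H2-DMb2 in male Day 0 mouse 4 at 3.34 (1.40) and H2-Q2 in male Day 3 mouse 1 at 1.001 (0.894).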

How the results depend on the processing

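Of the calls on single genes, 308 values kept their side of the threshold under an alternative and 163 lost it, and none changed direction. In males at Day 3, Cd74, H2-Aa, H2-Ab1 and H2-Eb1 passed under all 8 other settings and with any 1 mouse left out. The number of members passing moved as follows, with the cause not tested. The Wald test of DESeq2 called 5 at Day 2 in males, 9 at Day 2 and 6 at Day 5 in females, 3 and 1 between the sexes at Day 2 and Day 5, and 1 in the sex difference in response at Day 5 (9.12%, 6.87%, 2.37%, 2.66%, 3.63% and 2.02% of all genes with any count, a larger base than that of edgeR's shares). With no filter on low counts there were 7 at Day 2 and 3 at Day 5 in females (3.41% and 0.625% of all genes with any count, again a larger base). With at least 10 counts in every library there were 1 at Day 2 in males and 7 at Day 2 in females (5.45% and 6.66% of the genes that met this). One fit over all 8 groups gave 1 and 4 at Day 2 and Day 5 in males, 12, 14 and 7 at Days 2, 3 and 5 in females, 1, 0 and 1 between the sexes at Days 0, 3 and 5, and 2 in the response at Day 5, with 12.9% and 31.1%, 21.8%, 23.4% and 10.9%, 3.22%, 0.988% and 9.69%, and 7.55% of all genes, in that order. Voom with sample quality weights gave 12 and 12 at Day 2 and Day 5 in males, 20, 18 and 13 at Days 2, 3 and 5 in females, 8, 6, 14 and 15 between the sexes at Days 0, 2, 3 and 5, and 8, 5 and 15 in the response. Voom's shares of all genes were 46.4% and 54.8%, 50%, 47.8% and 18.9%, 25.2%, 19%, 42.5% and 29.7%, and 11.2%, 12% and 32.5%, in the same order. With the DEG threshold 6 remained at Day 3 and 0 at Day 5 in males, 1 at Day 2 and 6 at Day 3 in females, and 1 between the sexes at Day 3. Without female Day 0 mouse 2 and female Day 3 mouse 2, which had the most Alb, an alternative chosen after seeing the data, 4 passed at Day 3 in females. With the mouse number as a replicate block there were 4 at Day 3 and 0 at Day 5 in males, 0, 0 and 1 at Days 2, 3 and 5 in females, and 4 between the sexes at Day 3 (0.566% and 13%, 0.314%, 0% and 0.221%, and 17.6% of all genes), but mice with the same number did not deviate together (median correlation -0.0017 over 112 pairs, from -0.42 to 0.49). With 1 mouse left out the count ranged from 0 to 1, 6 to 16 and 0 to 1 at Days 2, 3 and 5 in males, 0 to 13, 0 to 13 and 0 to 8 in females, 0 to 0, 0 to 1, 0 to 12 and 0 to 2 between the sexes at Days 0, 2, 3 and 5, and 0 to 0 in the response. The shares of all genes were then 0.079% to 14%, 4.18% to 38.6% and 5.38% to 26% in males. In females they were 0.125% to 28.3%, 0% to 39.1% and 0.0483% to 12.6%. Between the sexes they were 0% to 0.495%, 0.567% to 3.35%, 11.1% to 34.6% and 0% to 17%. For the response at Days 2, 3 and 5 they were 0% to 0.00562%, 0% to 0.0335% and 0% to 6.74%. As shares of non-mitochondrial counts the log2 ratio of the class Ia sum to Day 0 was -0.23 and 0.58 at Day 3 and Day 5 in males and 0.12 at Day 3 in females, and that of class II -1.43 at Day 3 in males. Depth limits H2-Ob, H2-DMb2, H2-T24, H2-Q2 and H2-Q10, which had under 10 counts in some libraries.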
